A study of Mus musculus with 7 samples.

Results

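The gene Trp53, which encodes p53, and 8 genes known to be switched on by it were followed in liver mRNA of mice with and without TET1. These 9 genes, of 51426 genes counted and 14754 tested, are Trp53, Mdm2, Cdkn1a, Ccng1, Sesn1, Bax, Phlda3, Trp53inp1 and Eda2r. They were picked by name as p53 genes with their differences between these same livers already known, so their values below are a description and lend no support to a change of the p53 programme. The livers came from 3 wild-type (WT) male mice and 4 male mice with a whole-body, constitutive TET1 knockout (TET1 KO), all fed a high-fat diet (HFD) for 16 weeks from 8 weeks of age. The knockout line was bought as B6;129S4-Tet1tm1.1Jae/J, a mixed background of C57BL/6 and 129S4 origin, and the paper's methods do not say whether it was crossed further to C57BL/6J. The labels give C57BL/6J as the strain of all 7 mice, and the paper describes the controls of this line on HFD as littermates. TET1 is one of the TET enzymes, which oxidise methylated cytosine in DNA. Livers on another diet were not analysed here, so every comparison is between genotypes under HFD. The knockout is present in every cell of the mouse, and in whole-liver RNA fewer cells of a type and less RNA per cell cannot be told apart.

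p53 is a transcription factor that is held at a low level in unstressed cells, chiefly because MDM2 binds it and marks it for degradation. When DNA damage or another stress frees it, p53 binds pairs of short half-sites in DNA and turns on genes that stop the cell cycle, repair DNA, change metabolism or favour cell death, together with Mdm2 itself, which closes a feedback loop. In the liver p53 is known for its part in the response to injury and in lipid handling. Because p53 is governed mostly as a protein, the level of Trp53 mRNA need not follow its activity.

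The libraries held between 15005277 and 22746138 counts, and 1 CPM, the unit of counts scaled to library size by TMM, stood for between 14.2 and 24.1 counts. Tet1, the targeted gene, had between 1 and 4 counts in each library of either genotype, 6 in all in WT and 8 in all in TET1 KO livers, so mRNA at this depth does not check the genotype labels (exact two-sided permutation test on CPM, p = 0.686, where 35 splits of the livers allow no p under 0.0286). Over all tested genes, edgeR's quasi-likelihood test called 129 higher and 169 lower with loss of TET1, at an adjusted p under 0.05, and the median log2 fold change was 0.01. TET1 KO replicate 2 stood apart in adipocyte markers, which summed to 19.4 CPM in that library. They summed to 2.10 to 3.25 CPM in the WT and 0.278 to 0.614 CPM in the other KO libraries. The marker Cfd alone gave 3.25, 1.99 and 2.04 CPM in WT replicates 1 to 3, and 8.59 CPM in TET1 KO replicate 2. Sesn1 and Mdm2 lie on the chromosome of Tet1, chromosome 10, at distances of 20.9 and 54.8 Mb, and the other 7 genes lie elsewhere. Eda2r is on the X chromosome, of which a male cell has a single copy.

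The promoters of these genes are shown first, since p53 recognises a defined sequence. The windows are those of RefSeq on GRCm38.p6, from 250 bases before to 50 bases after each transcription start, and they were available for 10 starts of 8 genes, with no window for Trp53inp1. The sequence searched was the p53 half-site, 10 bases long and its own reverse complement as a pattern, so that each match counts for both strands. An exact half-site stood in 6 of the 10 windows, one window each of Cdkn1a, Mdm2, Ccng1, Trp53, Bax and Sesn1, against 8.36% of all 32851 windows. In the lines below the matched bases are in capitals, each stretch is read 5′ to 3′ along the strand of the gene, and the paired half-sites of Cdkn1a and Ccng1 are capitalised whole.
Cdkn1a, chr17:29090891-29090962, plus strand: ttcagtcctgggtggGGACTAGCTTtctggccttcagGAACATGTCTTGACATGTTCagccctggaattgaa
Ccng1, chr11:40755447-40755486, minus strand: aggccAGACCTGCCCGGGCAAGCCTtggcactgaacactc
Mdm2, chr10:117710920-117710959, minus strand: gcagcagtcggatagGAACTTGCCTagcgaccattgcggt
Trp53, chr11:69580269-69580308, plus strand: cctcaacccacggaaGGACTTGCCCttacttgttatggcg
Bax, chr7:45467075-45467114, minus strand: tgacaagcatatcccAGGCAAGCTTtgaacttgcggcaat
Sesn1, chr10:41887251-41887290, plus strand: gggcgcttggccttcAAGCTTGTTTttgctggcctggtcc

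Cdkn1a and Ccng1 differ from the others in that their windows hold 2 half-sites side by side. In both genes the 20 bases of the pair depart from the pattern at 1 position, and a pair with at most 1 mismatch was found in 29 of all windows, or 0.0883%. The first half-site shown for Cdkn1a begins 73 bases before the upstream one of its 2 starts, and the pair begins 51 bases before it. Exact half-sites began 185 bases before the start in Ccng1, 186 in Mdm2, 75 in Trp53, 201 in Bax and 173 before the downstream start of Sesn1. The windows of Eda2r and Phlda3, of the downstream start of Cdkn1a and of the upstream start of Sesn1 held no exact half-site. That says only that these letters are not in the 250 bases before or the 50 bases after these starts.

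TET enzymes act on cytosines that are followed by guanine (CG), so the number of CG pairs in each window was counted as well. The median over all windows was 7. The windows of Eda2r and of the upstream Cdkn1a start held 5 and 2 CG pairs, fewer than the other member windows, which held between 10 (Trp53) and 35 (Mdm2). The downstream Cdkn1a start, in contrast, had 23. DNA methylation was not measured in these livers, and these counts describe the sequence alone. The 250 bases before the start of Eda2r are given here with each CG in capitals, as the gene with the largest fold change of the 9.
Eda2r, chrX:97377210-97377459, minus strand: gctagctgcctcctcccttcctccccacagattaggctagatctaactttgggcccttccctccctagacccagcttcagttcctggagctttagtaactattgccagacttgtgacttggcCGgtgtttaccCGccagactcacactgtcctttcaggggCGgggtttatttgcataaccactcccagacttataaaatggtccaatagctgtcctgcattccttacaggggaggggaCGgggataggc

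Of the 9 genes, edgeR's quasi-likelihood test called 2 lower in TET1 KO livers, Eda2r and Cdkn1a, and 0 higher. Among all tested genes 1.15% were called lower and 0.874% higher, 2.02% in all, and since the genes were chosen on this contrast nothing is read from their share. The remaining 7 did not all point one way. Ccng1, Phlda3 and Trp53inp1 had negative fold changes that missed the threshold, Mdm2 differed by less still, and Trp53, Bax and Sesn1 had fold changes near or slightly above 0. The 4 KO values were all under the 3 WT values in 4 of the 9, namely Eda2r, Cdkn1a, Ccng1 and Mdm2. Such a separation in this direction was found in 10.8% of all tested genes, in the other direction in 11.7%, and in either in 22.5%. With DESeq2 3 of the 9 were lower, Ccng1 being the third, and 0 were higher, where 4.82% of all genes it tested were lower and 4.65% higher.

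**Figure D1:**
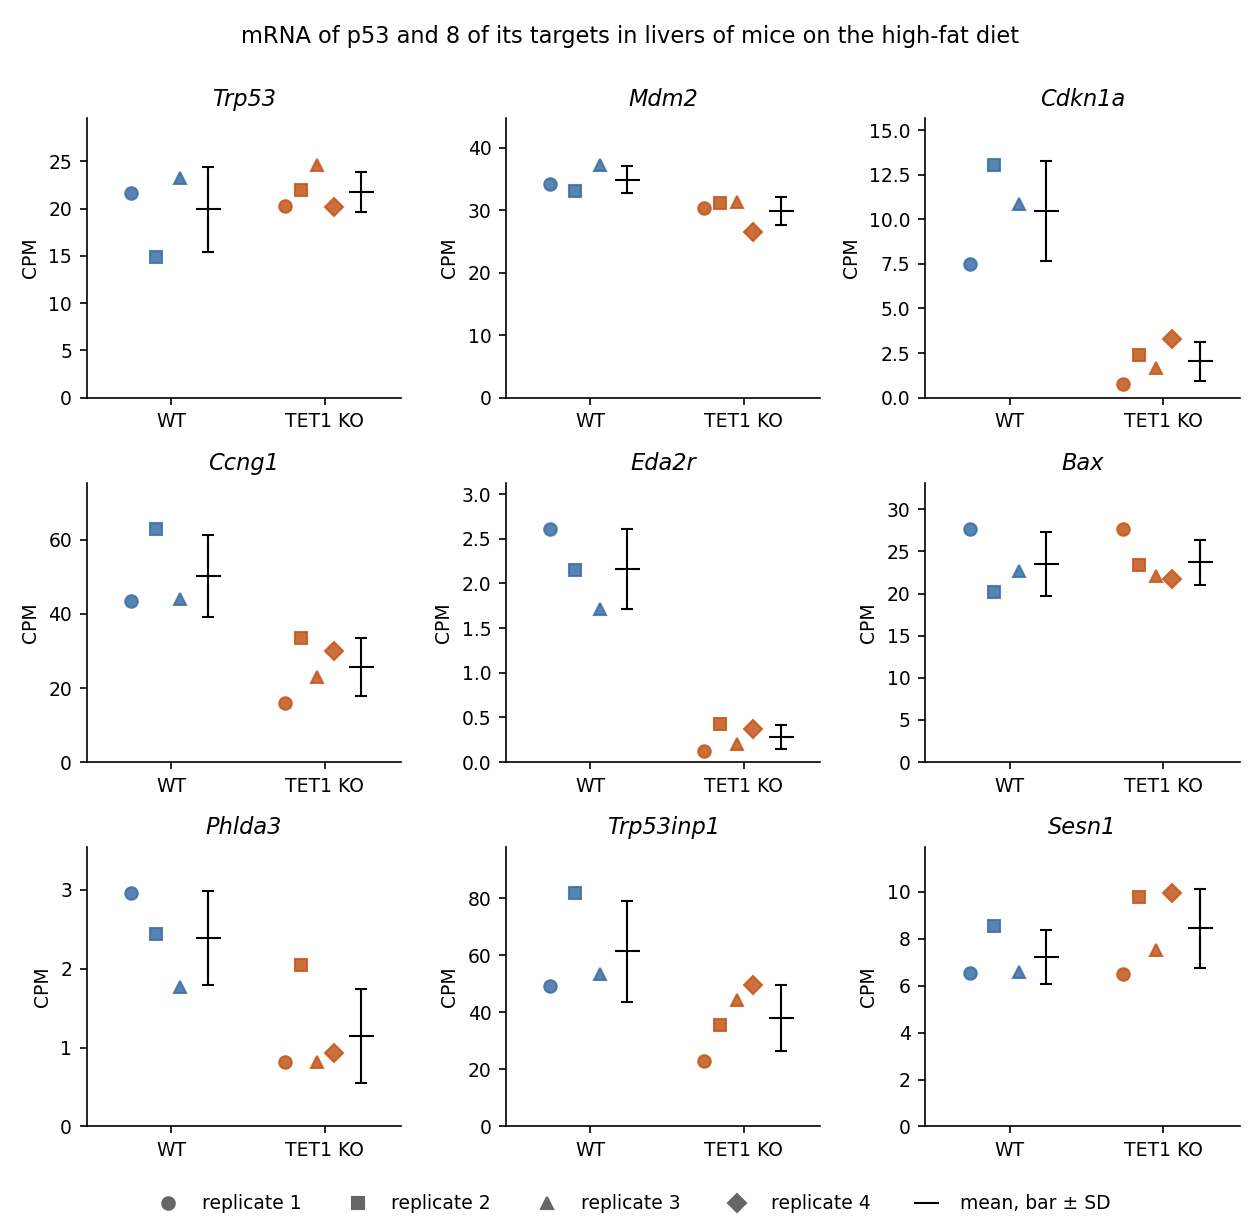
CPM of p53 and 8 of its target genes in each liver, on linear axes from 0, with WT in blue (n = 3) and TET1 KO in orange (n = 4); marker shapes are the replicate numbers, and the black dash and bar are the group mean ± SD. Eda2r and Cdkn1a show the widest gap between the genotypes, while Trp53, Bax and Sesn1 overlap.

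Trp53 itself (ENSMUSG00000059552, chr11:69580348-69591873) was measured at 21.7, 14.8 and 23.3 CPM in WT replicates 1 to 3. In TET1 KO replicates 1 to 4 it was at 20.3, 22.0, 24.7 and 20.1 CPM. The groups overlapped, with WT replicate 2 the lowest of the 7 livers. On the log2 scale the difference was 0.13 (SE 0.17, adjusted p = 0.653 in edgeR), with a 95% confidence interval from -0.25 to 0.51.

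Mdm2 (ENSMUSG00000020184, chr10:117688875-117710758), the ubiquitin ligase that restrains p53 and is itself a p53 target, was at 34.2, 33.1 and 37.3 CPM in WT livers. It was at 30.4, 31.1, 31.3 and 26.5 CPM in TET1 KO livers. The KO livers lay just below the WT livers, and the groups did not overlap. The fitted log2 fold change was -0.23 (SE 0.12, adjusted p = 0.261 in edgeR), with a 95% confidence interval from -0.50 to 0.04.

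Cdkn1a (ENSMUSG00000023067, chr17:29090979-29100722) encodes p21, an inhibitor of cyclin-dependent kinases (CDKs) and the classical effector of the p53 arrest of the cell cycle. It was counted 152, 315 and 197 times in WT livers, or 7.48, 13.1 and 10.9 CPM. In TET1 KO livers it was counted 12, 34, 33 and 71 times, or 0.751, 2.39, 1.69 and 3.29 CPM. The lowest WT liver was still 2.27 times the highest KO liver, and within the KO group the highest liver, replicate 4, was 4.38 times the lowest, replicate 1. The mean was 10.5 ± 2.81 CPM (SD, n = 3) in WT and 2.03 ± 1.08 CPM (SD, n = 4) in TET1 KO livers. Cdkn1a was thus 5.09-fold lower on the fitted scale, with a log2 fold change of -2.35 (SE 0.36, adjusted p = 0.0132 in edgeR). Its call depended on single livers. When WT replicate 2 was left out the adjusted p in edgeR rose to 0.0897, and when TET1 KO replicate 3 was left out it rose to 0.0552. Over all 14 alternatives it ranged from 9.96e-08 to 0.0897, and the log2 fold change from -2.76 to -2.08.

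Ccng1 (ENSMUSG00000020326, chr11:40748552-40755309) encodes cyclin G1, which brings a phosphatase to MDM2. Its level was 43.6, 62.9 and 43.9 CPM in WT livers and 16.0, 33.5, 23.1 and 30.1 CPM in TET1 KO livers. The groups did not overlap, the lowest WT liver being 1.30 times the highest KO liver. The means were 50.2 ± 11.1 CPM (SD, n = 3) in WT and 25.7 ± 7.76 CPM (SD, n = 4) in KO livers. The log2 fold change of -0.97 (SE 0.23) just missed the threshold, at an adjusted p of 0.0590 in edgeR. DESeq2 put the adjusted p at 0.00495, edgeR scaled to library size only at 0.0454, and edgeR without WT replicate 2, the highest of the 7 livers, at 0.272.

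Sesn1 (ENSMUSG00000038332, chr10:41810574-41908436), a stress sensor that restrains the mTORC1 growth pathway, was at 6.55, 8.54 and 6.57 CPM in WT livers. In TET1 KO livers it was at 6.51, 9.79, 7.52 and 9.93 CPM. The KO livers spanned the whole range of the WT livers. Their log2 fold change was 0.22 (SE 0.20, adjusted p = 0.490 in edgeR), with a 95% confidence interval from -0.22 to 0.66.

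Among the genes tied to cell death, Bax (ENSMUSG00000003873, chr7:45461695-45466903), whose protein opens pores in the outer mitochondrial membrane, had nearly the same mean in both genotypes. It was at 27.7, 20.2 and 22.7 CPM in WT livers and at 27.6, 23.4, 22.1 and 21.7 CPM in TET1 KO livers. The WT range covered all the KO values. Fitted, this was a log2 fold change of 0.01 (SE 0.15, adjusted p = 0.974 in edgeR), with a 95% confidence interval from -0.33 to 0.34, and its sign turned in 7 of the 14 alternatives.

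Phlda3 (ENSMUSG00000041801, chr1:135766085-135769134), whose protein keeps the kinase AKT from the membrane, was at 2.95, 2.45 and 1.77 CPM in WT livers. In TET1 KO livers it was at 0.814, 2.04, 0.818 and 0.928 CPM. TET1 KO replicate 2 alone reached into the WT range, above WT replicate 3. The fold change was -1.09 on the log2 scale (SE 0.36, adjusted p = 0.0986 in edgeR), and over the 7 fits that left out a liver it ran from -1.49, without that liver, to -0.93, with adjusted p-values of 0.0626 to 0.326 in edgeR.

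Trp53inp1 (ENSMUSG00000028211, chr4:11156441-11174379), a p53-induced nuclear protein that also takes part in autophagy, was at 49.1, 81.7 and 53.5 CPM in WT livers. It was at 22.9, 35.4, 44.4 and 49.5 CPM in TET1 KO livers. TET1 KO replicate 4 and WT replicate 1 were at nearly the same level, so the groups overlapped by that pair. On the log2 scale the fold change was -0.69 (SE 0.25, adjusted p = 0.125 in edgeR), and it was -0.43 (adjusted p = 0.464 in edgeR) without WT replicate 2, the highest liver.

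Eda2r (ENSMUSG00000034457, chrX:97333837-97377234) encodes a receptor of the tumour necrosis factor (TNF) receptor family, which binds the A2 form of the ligand ectodysplasin and signals through TRAF proteins to NF-κB and JNK. It had the largest fold change of the 9 genes and, per length of exon, the lowest level. It was counted 53, 52 and 31 times in WT livers, or 2.61, 2.16 and 1.71 CPM, and 2, 6, 4 and 8 times in TET1 KO livers, or 0.125, 0.423, 0.205 and 0.371 CPM. The lowest WT liver was 4.05 times the highest KO liver. The mean was 2.16 ± 0.449 CPM (SD, n = 3) in WT and 0.281 ± 0.139 CPM (SD, n = 4) in TET1 KO livers, 13.0% of the WT mean.

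The log2 fold change of Eda2r was -2.92 (SE 0.38, adjusted p = 0.00720 in edgeR), or 7.56-fold lower, and it ranked 13th by p among the genes with a negative fold change. The KO value rests on 20 counts over 4 livers, against 136 over 3 WT livers. The 2 counts of TET1 KO replicate 1 have an exact Poisson 95% interval of 0.242 to 7.22 counts, or 0.0152 to 0.452 CPM, and that of the highest KO liver, replicate 2 with 6 counts, ends at 0.920 CPM. The lower ends of the WT intervals lay between 1.16 and 1.95 CPM, above both. These intervals cover counting error only. Unlike Cdkn1a, Eda2r kept an adjusted p under 0.05 in all 13 alternatives that could test it, with a range of 1.37e-06 to 0.0437 and log2 fold changes from -3.14 to -2.70. It could not be tested where at least 10 counts were required in every library. In the main fit it passed the filter on low counts through the WT livers alone. As Eda2r was also chosen on this contrast, its adjusted p-values lend no support to a change.

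Levels of different genes can be compared only per length of transcript. Per kilobase of exon, with lengths of GENCODE M1, an older annotation on NCBIM37, the order in WT livers was Bax, Ccng1, Trp53inp1, Mdm2, Trp53, Cdkn1a, Sesn1, Phlda3 and Eda2r. Bax stood at 17.6 ± 2.82 CPM per kb and Eda2r at 0.366 ± 0.0762 CPM per kb (SD, n = 3). Bax and Ccng1 overlapped in their WT ranges (15.1 to 20.7 and 12.4 to 17.9 CPM per kb), as did Ccng1 and Trp53inp1 (12.4 to 17.9 and 7.58 to 12.6 CPM per kb) and Trp53 and Cdkn1a (3.67 to 5.76 and 3.37 to 5.87 CPM per kb). In TET1 KO livers Cdkn1a stood at 0.914 ± 0.485 CPM per kb (SD, n = 4), below Sesn1 at 2.54 ± 0.509. No exon of these 9 genes overlapped an exon of another gene on either strand in that annotation.

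The livers of one genotype did not keep one order over the 9 genes. TET1 KO replicate 1 was the lowest KO liver in 6 of them and replicate 4 in the other 3, Trp53, Mdm2 and Bax. WT replicate 2 was the highest WT liver in 4, Cdkn1a, Ccng1, Trp53inp1 and Sesn1. The highest KO liver was 4.38 times the lowest in Cdkn1a, whose exact Poisson 95% intervals in those livers (0.388 to 1.31 and 2.57 to 4.15 CPM) did not overlap, and 1.18 and 1.22 times the lowest in Mdm2 and Trp53. The KO livers could not be ordered by Eda2r at this depth, since the intervals of its lowest and highest, with 2 and 6 counts, overlapped.

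**Figure D2:**
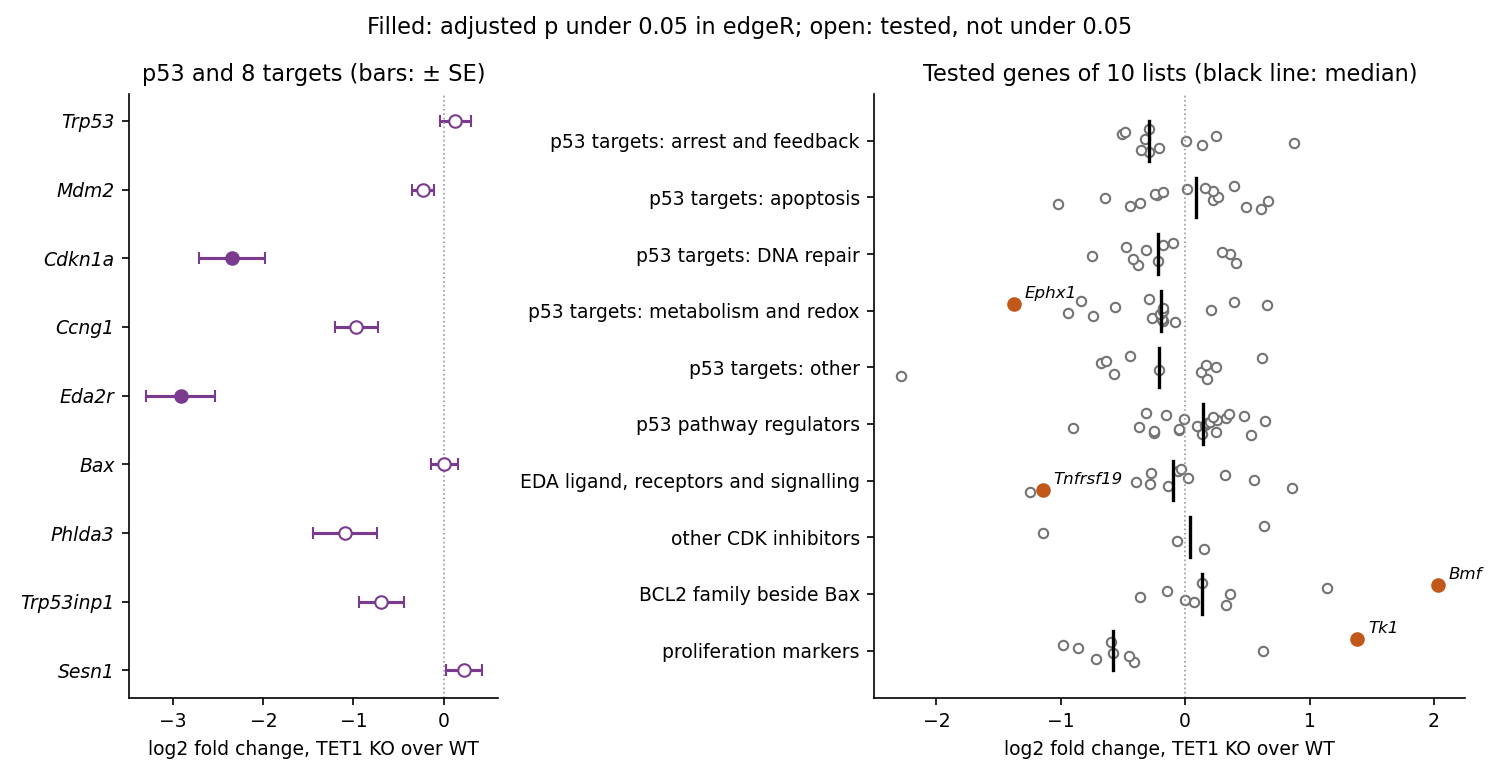
Log2 fold change of TET1 KO over WT livers, for p53 and 8 targets with the standard error (left) and for the tested genes of 10 gene lists with the median of each list as a black line (right); filled points had an adjusted p under 0.05 in edgeR. Eda2r and Cdkn1a are the filled points on the left, and Ephx1, Tnfrsf19, Bmf and Tk1 those on the right.

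Other targets of p53 were listed from general knowledge, with results of these livers already known, 70 genes in 5 lists that hold none of the 9, of which 65 could be tested. A single one was called lower, Ephx1, and 0 were higher, with 13 lower and 4 higher at an unadjusted p under 0.05, where 12.7% and 13.6% of all tested genes were. Their median log2 fold change was -0.20, against 0.01 over all tested genes. All KO values were under all WT values in 12 of the 65, where this held in 10.8% of all tested genes, and above them in 4, against 11.7%. Across the livers, the mean of their log2 CPM, each gene centred on its own mean, was 0.14, 0.11 and 0.05 in WT and -0.15, -0.09, -0.10 and 0.03 in TET1 KO replicates 1 to 4. TET1 KO replicate 4 lay just below the lowest WT liver, so the groups did not overlap. The group means differed by -0.18. With DESeq2, 5 of these targets were lower and 1 was higher, where 4.82% and 4.65% of all genes it tested were.

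Ephx1, which encodes the microsomal epoxide hydrolase that detoxifies reactive epoxides, is abundant in liver. It was at 455, 552 and 320 CPM in WT and 132, 163, 179 and 209 CPM in TET1 KO livers, with no overlap. The fitted log2 fold change was -1.37 (SE 0.21, adjusted p = 0.0117 in edgeR). Without WT replicate 2 the adjusted p was 0.0719 in edgeR, and it was under 0.05 in the other 13 alternatives, down to 1.23e-07 in DESeq2.

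By role, the targets for arrest and feedback (11 tested) had a median log2 fold change of -0.29, those for DNA repair (11 tested) -0.22, those for metabolism and redox (16 tested) -0.19, and the mixed remainder (11 tested) -0.21. The apoptosis targets (16 tested) had a median of 0.09. Among the genes with the largest fold changes in each list, Ckap2, a spindle protein, had -2.28 (adjusted p = 0.0655 in edgeR) and Acad11, which breaks down long-chain fatty acids, -0.94 (adjusted p = 0.0862). Sfn, an arrest gene that encodes a 14-3-3 protein, had 0.88 (adjusted p = 0.147) and Zmat3 -0.50 (adjusted p = 0.200). Tnfrsf10b, a TRAIL death receptor, had -1.03 (adjusted p = 0.328) and Pidd1, a death domain protein, 0.67 (adjusted p = 0.129). In DNA repair, the polymerase gene Polh had -0.75 (adjusted p = 0.294) and Mgmt, which repairs alkylated guanine, -0.47 (adjusted p = 0.148 in edgeR). Cpt1c had -0.84 (adjusted p = 0.312 in edgeR). In DESeq2 the 5 lower genes were Ephx1, Ckap2, Acad11, Aen and Abhd4, and the higher one was Fdxr, ferredoxin reductase, at a log2 fold change of 0.66 (adjusted p = 0.0501 in edgeR and 0.00547 in DESeq2). Aen, Abhd4 and Fdxr are named here because of these values.

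Of the genes that act on p53, 22 were tested, and 0 were called in either direction by edgeR, with 1 lower and 3 higher at an unadjusted p under 0.05 (12.7% and 13.6% of all tested genes) and 1, Crebbp, higher in DESeq2. Mdm4, the partner of MDM2 in holding p53 down, was at 62.0, 38.4 and 50.1 CPM in WT and 77.9, 71.5, 81.2 and 59.6 CPM in the KO livers. Its log2 fold change was 0.53 (SE 0.18, adjusted p = 0.101 in edgeR), and TET1 KO replicate 4 lay within the WT range. Crebbp, an acetyltransferase and p53 coactivator, had a log2 fold change of 0.64 (adjusted p = 0.0893 in edgeR), and the checkpoint kinase gene Chek1 had -0.90 (adjusted p = 0.185).

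Since Eda2r is a receptor, its ligand and neighbouring signalling genes were looked at next, 14 genes of which 12 were tested. The ligand Eda, on the X chromosome like Eda2r, was at 2.17, 1.66 and 1.55 CPM in WT and 1.00, 0.845, 0.460 and 0.742 CPM in TET1 KO livers. The groups did not overlap, but the log2 fold change of -1.25 (SE 0.32) missed the threshold in edgeR (adjusted p = 0.0655) and passed it in DESeq2 (adjusted p = 0.0332). The counts are not split between the A1 and A2 forms of the ligand, of which only A2 binds EDA2R. Edar, the receptor of the A1 form, was at 0 counts in all livers but TET1 KO replicate 4, which had 0.139 CPM, and Edar and its adaptor Edaradd were too low to test.

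Tnfrsf19, which encodes TROY, another receptor of the TNF family, was the only gene of this list that was called. It was called lower, as were 1.15% of all tested genes. It was at 7.92, 9.37 and 4.64 CPM in WT and 2.82, 3.17, 3.12 and 4.08 CPM in TET1 KO livers, and WT replicate 3 lay close to TET1 KO replicate 4. Its log2 fold change of -1.15 (SE 0.25, adjusted p = 0.0461 in edgeR) kept an adjusted p under 0.05 in 2 of the 7 fits that left out a liver, without WT replicate 3 and without TET1 KO replicate 4. Without WT replicate 2 it was -0.93 (adjusted p = 0.239 in edgeR), and the adjusted p ranged from 0.00296 to 0.239 over all 14 alternatives. The TRAF, IKK and NF-κB genes of the list, 10 in number, held 0 calls, with Traf1 at a log2 fold change of 0.86 (adjusted p = 0.358 in edgeR).

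**Figure D3:**
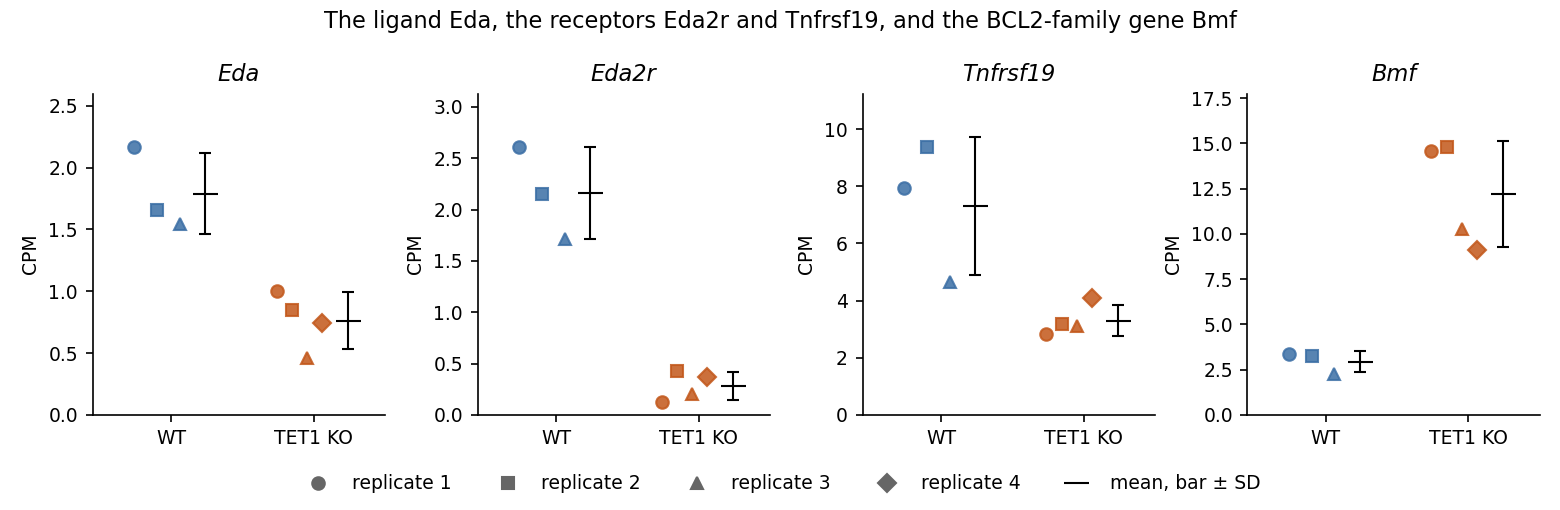
CPM of the ligand Eda, its receptor Eda2r, another TNF-family receptor, Tnfrsf19, and the BCL2-family gene Bmf in each liver, on linear axes from 0, with WT in blue (n = 3), TET1 KO in orange (n = 4), marker shapes for the replicate numbers, and the group mean ± SD in black. The TET1 KO livers lie below the WT livers in the first 3 genes and above them in Bmf.

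Genes related to Cdkn1a and Bax were examined as well. Of 6 other CDK inhibitor genes, 4 were tested and 0 were called in edgeR, where 2.02% of all tested genes were. Cdkn1b, which encodes p27, had a log2 fold change of 0.15 (adjusted p = 0.513), Cdkn1c -0.07 (adjusted p = 0.910), Cdkn2c -1.14 (adjusted p = 0.0862 in edgeR and 0.0315 in DESeq2) and Cdkn2d 0.63 (adjusted p = 0.133). Per kb of exon, Cdkn1b and Cdkn1a stood at 5.85 ± 0.787 and 4.71 ± 1.26 CPM per kb in WT livers (SD, n = 3), with overlapping ranges. In TET1 KO livers they stood at 6.50 ± 0.636 and 0.914 ± 0.485 CPM per kb (SD, n = 4).

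In the BCL2 family 9 genes beside Bax were tested, with 1 higher and 0 lower, where 0.874% and 1.15% of all tested genes were. Bmf, whose protein binds and neutralises survival members of the family, was at 3.35, 3.23 and 2.26 CPM in WT livers and rose to 14.6, 14.8, 10.3 and 9.09 CPM in the KO livers. Its log2 fold change was 2.04 (SE 0.24, adjusted p = 0.00377 in edgeR), and it was called in all 14 alternatives. The survival genes Bcl2l1 and Mcl1 had log2 fold changes of 0.07 (adjusted p = 0.749) and -0.0047 (adjusted p = 0.986 in edgeR), and Bcl2l2 had -0.36 (adjusted p = 0.243). Bik, another death-promoting member, had 1.14 (adjusted p = 0.0780 in edgeR and 0.0148 in DESeq2). Bik and Bmf were the 2 higher genes of the list in DESeq2, which called 4.65% of all genes it tested higher. Of the paralogs of Ccng1 and Phlda3, Ccng2 had -0.22 (adjusted p = 0.517 in edgeR), Ccni -0.30 (adjusted p = 0.191) and Phlda1 1.85 (adjusted p = 0.0984), the last with 564 CPM in TET1 KO replicate 1 and 94.7 to 173 CPM in the other KO livers.

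As p21 holds back the cell cycle, 13 genes of proliferating cells were listed beside it, of which 9 were tested. Only Tk1 was called, and it was higher, where 0.874% of all tested genes were. Tk1, the thymidine kinase of the S phase, rose from 11.2, 7.59 and 7.51 CPM in WT to 22.0, 26.6, 21.8 and 21.2 CPM in the KO livers. Its log2 fold change was 1.38 (SE 0.18, adjusted p = 0.00708 in edgeR), under 0.05 in all 14 alternatives. The median of the list was -0.58, with 0 called lower in edgeR and 7 of the 9 below 0, where 48.9% of all tested genes were. In 4 of the 9 all KO values were under all WT values, as in 10.8% of all tested genes. Mki67, at 1.38 to 3.36 CPM in all livers, had a log2 fold change of -0.41 (adjusted p = 0.338 in edgeR), and Mcm5 and Mcm2, of the replicative helicase, had -0.98 (adjusted p = 0.142 in edgeR) and -0.87 (adjusted p = 0.0695 in edgeR and 0.0225 in DESeq2).

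The 5 tested genes whose profile lay nearest to that of Eda2r, by the root mean square distance of centred log2 CPM over the 7 livers, were Rad51b, Aqp4, Mmd2, Cd36 and Tnnt1. The distances were 0.253 for Rad51b, a DNA recombination gene, 0.283 for the water channel gene Aqp4, 0.344 for Mmd2, 0.359 for the fatty acid translocase gene Cd36 and 0.359 for the troponin gene Tnnt1. All 5 had all their KO values under all their WT values, which follows from choosing them for their likeness to Eda2r. Their mean level spanned 2.02 CPM (Tnnt1) to 155 CPM (Cd36) in WT livers and 0.416 to 19.9 CPM in TET1 KO livers. No other of the 9 p53 genes was among them.

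**Figure D4:**
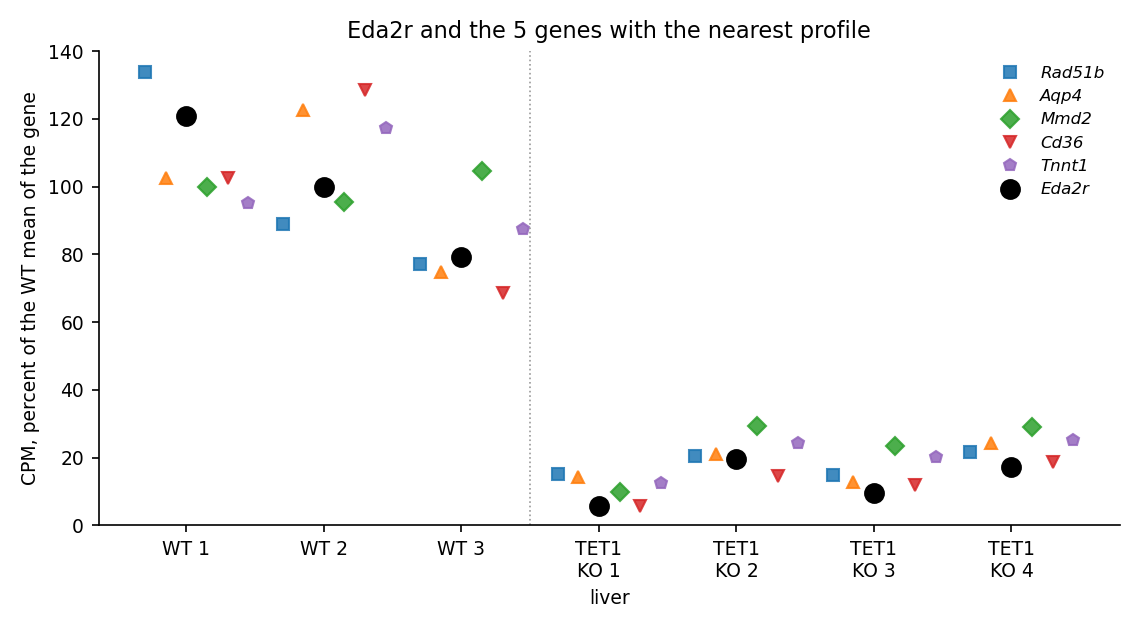
CPM of Eda2r (black) and of the 5 genes with the nearest profile in each of the 7 livers, as a percent of the mean of the 3 WT livers of that gene, on a linear axis from 0. In all 6 genes each of the 4 TET1 KO livers lies below each of the 3 WT livers, as the choice of these genes by their likeness to Eda2r entails.

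Marker genes of liver cell types were set beside these results. Hepatocyte markers were abundant in every library, with a summed level of 66825 to 87319 CPM in WT and 80213 to 87773 CPM in TET1 KO livers. Of the 9 marker lists, 0 genes were called in edgeR. Cholangiocyte markers summed to 29.7 to 37.9 CPM in WT and 46.2 to 68.0 CPM in TET1 KO livers, without overlap. All 5 tested markers had positive fold changes. DESeq2 called 3 of them higher, Epcam, Sox9 and Spp1, where it called 4.65% of all genes higher and 4.82% lower. Epcam and Krt19 were highest in TET1 KO replicate 4, at 4.87 and 6.68 CPM. In the other KO livers they were at 0.689 to 0.986 and 1.06 to 1.69 CPM. Sox9 and Spp1 were highest in TET1 KO replicate 2. DESeq2 also called 3 of 8 stellate markers lower, Col1a1, Col1a2 and Hgf, and 1 endothelial marker, Lyve1. Apoa1 of the hepatocyte and Cd4 of the T and NK cell markers were higher in DESeq2. All these genes but Krt19 are named for their DESeq2 values. The summed ranges of the other lists overlapped between WT and TET1 KO livers. They were 207 to 341 and 157 to 340 CPM for Kupffer cells and macrophages, 178 to 191 and 159 to 189 CPM for endothelium, 77.8 to 140 and 79.8 to 102 CPM for stellate cells, 3.36 to 36.9 and 4.30 to 13.0 CPM for neutrophils, 3.27 to 5.68 and 4.82 to 9.65 CPM for T and NK cells, 7.83 to 15.6 and 10.5 to 29.1 CPM for B cells, and 2.10 to 3.25 and 0.278 to 19.4 CPM for adipocytes. No marker was at 0 in every library. Without TET1 KO replicate 2, the library with the high adipocyte sum, the log2 fold changes were -3.14 for Eda2r (adjusted p = 0.0168 in edgeR), -2.44 for Cdkn1a (adjusted p = 0.0394), -1.13 for Ccng1 (adjusted p = 0.0649) and -1.49 for Phlda3 (adjusted p = 0.0626). The part of the other cell types in the values of Eda2r, Cdkn1a and the other p53 genes was not tested.

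**Figure D5:**
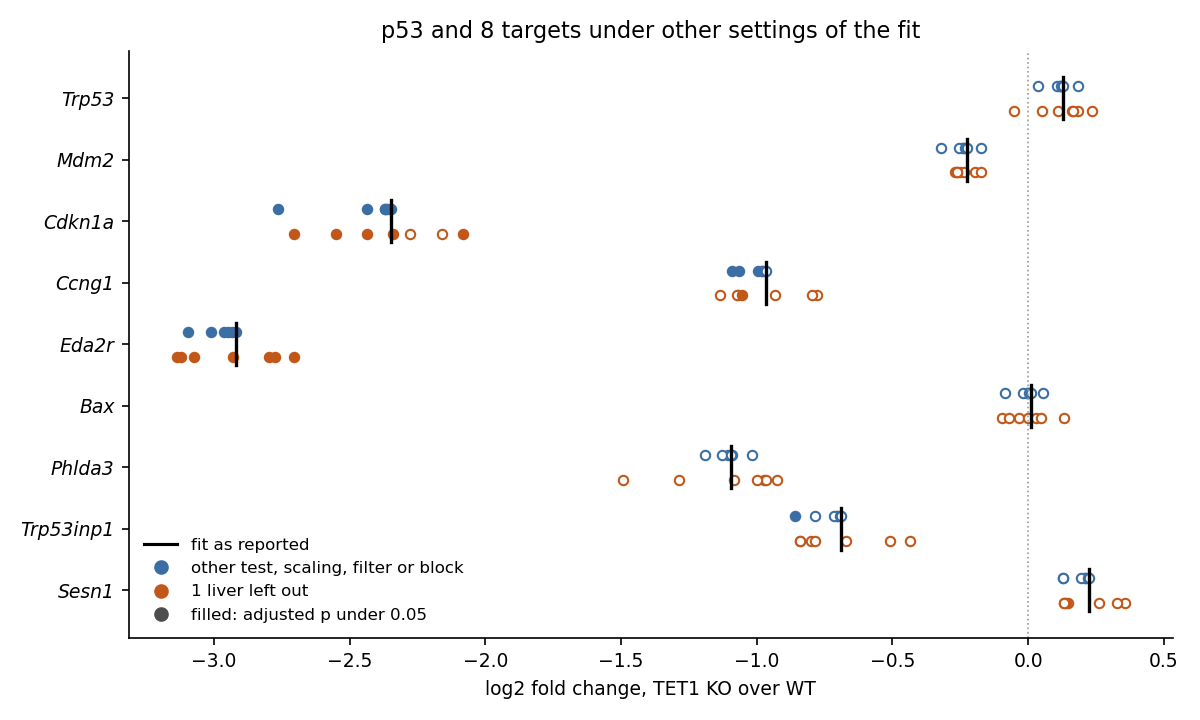
Log2 fold change of TET1 KO over WT livers for p53 and 8 targets under each alternative, in blue for another test, scaling, filter or replicate block and in orange for fits without 1 liver; the black line is the value as reported, and filled points had an adjusted p under 0.05. Eda2r is filled throughout, between -3.14 and -2.70, Cdkn1a is open without WT replicate 2 and without TET1 KO replicate 3, and Bax lies on both sides of 0.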

How the data were processed

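Livers of 3 WT and 4 TET1 KO mice gave 1 mRNA library each, made with a strand-marking kit. The authors deposited raw counts of reads per Ensembl gene for each mouse, not normalized. The submitters' processing notes name Trimmomatic 0.36, GSNAP, featureCounts 1.5.3 and GRCm38. The strand setting and annotation release are not given in the sources used here.

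Tables were joined by Ensembl identifier, after 5 repeated entries were dropped. The main test was that of edgeR 4.0.16, run in R 4.3.3 (filterByExpr, TMM, quasi-likelihood test of genotype without covariates) and adjusted by the Benjamini-Hochberg method over 14754 genes. A gene was called at an adjusted p under 0.05, with no limit on fold change, and "rose" or "fell" refers to such calls. CPM were scaled by TMM, with a prior count of 2 where a log2 was taken. Confidence intervals use the moderated degrees of freedom of edgeR (residual plus prior). DESeq2 1.42.0 was the alternative test. The floor was set at 3 counts per library. Libraries of one genotype differed by far more than sampling noise (chi-square of at least 26.5 per degree of freedom), so none was counted as a repeat. The labels give no batch or date. The p-values of edgeR and DESeq2 set the genotype difference against the spread between livers of one genotype, estimated in part from other genes.

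The genes and lists were chosen with earlier results of these data known. The genes named are the 9 p53 genes, Tet1, Mdm4, Eda, Edar, every called gene and the 2 largest fold changes of each list, and the 5 genes nearest to Eda2r, except 1 gene that is not reported here. A permutation test of the mean level of the wider p53 targets had been planned and is not reported, as those lists were chosen this way too. Further genes of the lists (Ccng2, Cdkn1b, Cdkn1c, Bcl2l1, Mcl1, Mki67, Krt19, Cfd and those named for their values in DESeq2) were added after their values were seen. The alternatives were the DESeq2 test, RLE size factors in edgeR, scaling to library size only, a filter of at least 10 counts per gene in all libraries or no filter, robust dispersions, a replicate block, and leaving out each liver. Gene positions and promoter windows are those of RefSeq (GRCm38.p6), matched by symbol (all 9 genes for positions, 8 for windows). Figures were drawn with matplotlib.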

Additional observations from a re-analysis of the deposited data

Results flagged for a closer look

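In groups of 4 livers, a gene was marked where the gap between its highest or lowest TET1 KO liver and the nearest other KO liver was a large share of the range of the group, by Dixon's ratio at its 95% critical value. Chance marks about 5% of groups, and 6 of 41 genes examined were marked. Phlda3, with a ratio of 0.907, had 2.04 CPM in TET1 KO replicate 2 and 0.814 to 0.928 CPM in the other KO livers. Replicate 4 stood out in Tnfrsf10b (ratio 0.941), with 0.603 CPM against 0.125 to 0.153, and in Ckap2 (ratio 0.940), with 0.371 CPM against 0.0511 to 0.0704. Replicate 1 stood out in Phlda1 (ratio 0.834), with 564 CPM against 94.7 to 173, and in Ccni (ratio 0.845), with 74.1 CPM against 96.1 to 100.2. Replicate 2 stood out in Tk1 (ratio 0.851), with 26.6 CPM against 21.2 to 22.0. Tnfrsf10b and Ckap2 are near the floor in TET1 KO livers. Of the 9 p53 genes only Phlda3 was marked.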

How the results depend on the processing

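Eda2r kept its direction and its adjusted p under 0.05 in all 13 alternatives available to it. The counts of calls moved more. All genes higher in TET1 KO livers numbered 129, with 685 in DESeq2, 245 with no filter, 671 with the replicate number as a block and 16 to 427 with a liver left out, the lowest without WT replicate 2 and the highest without TET1 KO replicate 4. All lower genes numbered 169, with 710 in DESeq2, 312 with library size only, 347 with no filter, 656 with the replicate block and 21 to 464 with a liver left out, at the same livers. Of the wider p53 targets 1 was lower, with 5 in DESeq2, 3 with library size only, 2 with no filter, 3 with the replicate block and 0 to 4 with a liver left out. The count of higher ones, 0, was 1 in DESeq2, with no filter, with robust dispersions and with the block, and 0 to 1 with a liver left out. Of the list of Eda and neighbouring signalling genes 1 was lower, Tnfrsf19, with 2 in DESeq2 and 0 to 1 with a liver left out. The difference in the mean level of the wider targets, -0.18, ran from -0.27 to -0.16 over all alternatives. The log2 fold change of Trp53 turned to -0.053 without WT replicate 2, within -0.053 to 0.24 over the fits that left out a liver. That of Bax turned to -0.0040 in DESeq2, -0.0038 with RLE, -0.084 with library size only and -0.018 with no filter, and ran from -0.10 to 0.13 over the fits that left out a liver, below 0 without WT replicate 2, WT replicate 3 or TET1 KO replicate 1. The cause of these shifts was not tested.

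The deviations of livers with the same replicate number had r = 0.21, -0.12 and -0.10 for numbers 1 to 3. For different numbers r ran from -0.30 to 0.31, so these values cannot show whether the numbers pair the mice. With the replicate block, Ccng1 and Trp53inp1 had adjusted p-values of 0.0141 and 0.0405 in edgeR, and Cdkn1a and Eda2r 0.00521 and 0.0163. TET1 KO replicate 4 has no WT liver of its number, so the fit with the block, its counts of calls included, took no genotype difference from it. Depth limits genes with under 20 counts in each TET1 KO library, among them Eda2r, Ckap2, Tnfrsf10b, Cpt1c, Tnnt1 and Eda.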
